A study of Urosaurus graciosus
Urosaurus ornatus and Urosaurus graciosus and Urosaurus ornatus with 18 samples.

Results

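The HSP70 machine of the cytosol was followed through 5 genes: the HSP70 chaperones HSPA8 and HSPA2, the HSP110-type exchange factors HSPA4 and HSPH1, and the exchange factor BAG1. They were chosen by gene symbol, with earlier results of these data known. Each of the 5 symbols matched 1 of the 22773 rows of the count table. Liver RNA came from 18 male lizards of the genus Urosaurus, each held for 48 h at 1 temperature. The groups were hybrids at 40 °C and at 36 °C, parental Urosaurus graciosus at 40 °C and at 36 °C, and parental Urosaurus ornatus at 40 °C and at 36 °C, with 3 animals in each. The study asked how antioxidant gene expression differs in hybrids. The sources used here state neither ages nor the generation of the hybrids. Animals are named by the letters in their labels. Heated animals were X, I and K among hybrids, T, P and Q in U. graciosus, and O, L and N in U. ornatus. Animals at 36 °C were A, B and D among hybrids, J, R and S in U. graciosus, and E, F and H in U. ornatus.

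HSP70 proteins bind exposed hydrophobic stretches of unfolded proteins and release them in a cycle driven by ATP. HSP40 proteins bring clients and start ATP hydrolysis. Exchange factors then remove ADP so that ATP can bind again and the client leaves. Heat shock factor HSF1 raises transcription of many of these genes when unfolded proteins accumulate. HSPA8 is the constitutive HSP70, known as HSC70. HSPA2 is enriched in testis in mammals, while in chicken a heat-inducible HSP70 carries this symbol. HSPA4 and HSPH1 are relatives of HSP70 that act on it as exchange factors, and HSPH1 is heat-inducible in mammals. BAG1 binds the ATPase domain of HSP70 and also links it to the proteasome.

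Libraries held 15780346 to 35002548 counts. Levels are given as CPM, counts scaled to a common library size with TMM factors (trimmed mean of M values). Of the table's genes, 15856 passed edgeR's filter on low counts, all 5 members among them. No gene lengths were used, so levels are not compared between genes. Hybrid X, U. graciosus T and U. ornatus O stood apart among the heated animals in the heat shock genes, so the members' heat effects are given with and without them. X, T and O had TMM factors of 1.43, 0.867 and 1.35, against 0.870 to 1.18 in the other animals. They held 20080212, 17299828 and 15780346 counts, against a median of 25030800 over all libraries. X exceeded the other 5 hybrids in 32.6% of the genes tested, T the other 5 U. graciosus in 23.4% and O the other 5 U. ornatus in 24.9%. The summed level of 13 hepatocyte markers (of 18 listed), led by TF and APOB, was 34570 to 155387 CPM at 40 °C and 78561 to 167028 CPM at 36 °C. It was 34570 CPM in X, 155387 CPM in T and 40352 CPM in O, against 66787 to 141897 CPM in the other heated animals.

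Heat took 1 of the 5 genes past the threshold, an adjusted p under 0.05. Averaged over the lineages, HSPH1 rose at 40 °C by 2.96 ± 0.61 on the log2 scale (SE, 9 animals against 9), with an adjusted p of 0.0404 in edgeR's quasi-likelihood test. The call was made in 6 of the 18 fits that left out 1 animal, and not without X, T and O (adjusted p = 0.0529). Those 18 fits called 6 to 131 genes in all, against 158 with every animal. HSPA2 differed by 6.05 ± 1.39, HSPA8 by 2.52 ± 0.64 and HSPA4 by 0.61 ± 0.21, none of which passed (adjusted p = 0.0504, 0.0700 and 0.159 in edgeR). BAG1 lay on the other side of 0, at -0.46 ± 0.17 (adjusted p = 0.178). So 1 of 5 members was called, against 0.996% of all genes tested. All 5 had an unadjusted p under 0.05, as did 2837 of the 15856 genes. Members were chosen with earlier results of these data known, so setting them as a group against all genes is descriptive. The median of the 5 fitted values was 2.52, against 0.030 over all genes tested. Without X, T and O it was 0.35, against -0.021 over all genes. These are fitted values, taken from group means of the counts, in which 1 very high animal weighs more than in a mean of logs. The mean of log2 CPM differed by 2.27 for HSPH1, 2.74 for HSPA2, 1.77 for HSPA8, 0.52 for HSPA4 and -0.45 for BAG1.

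**Figure D1:**
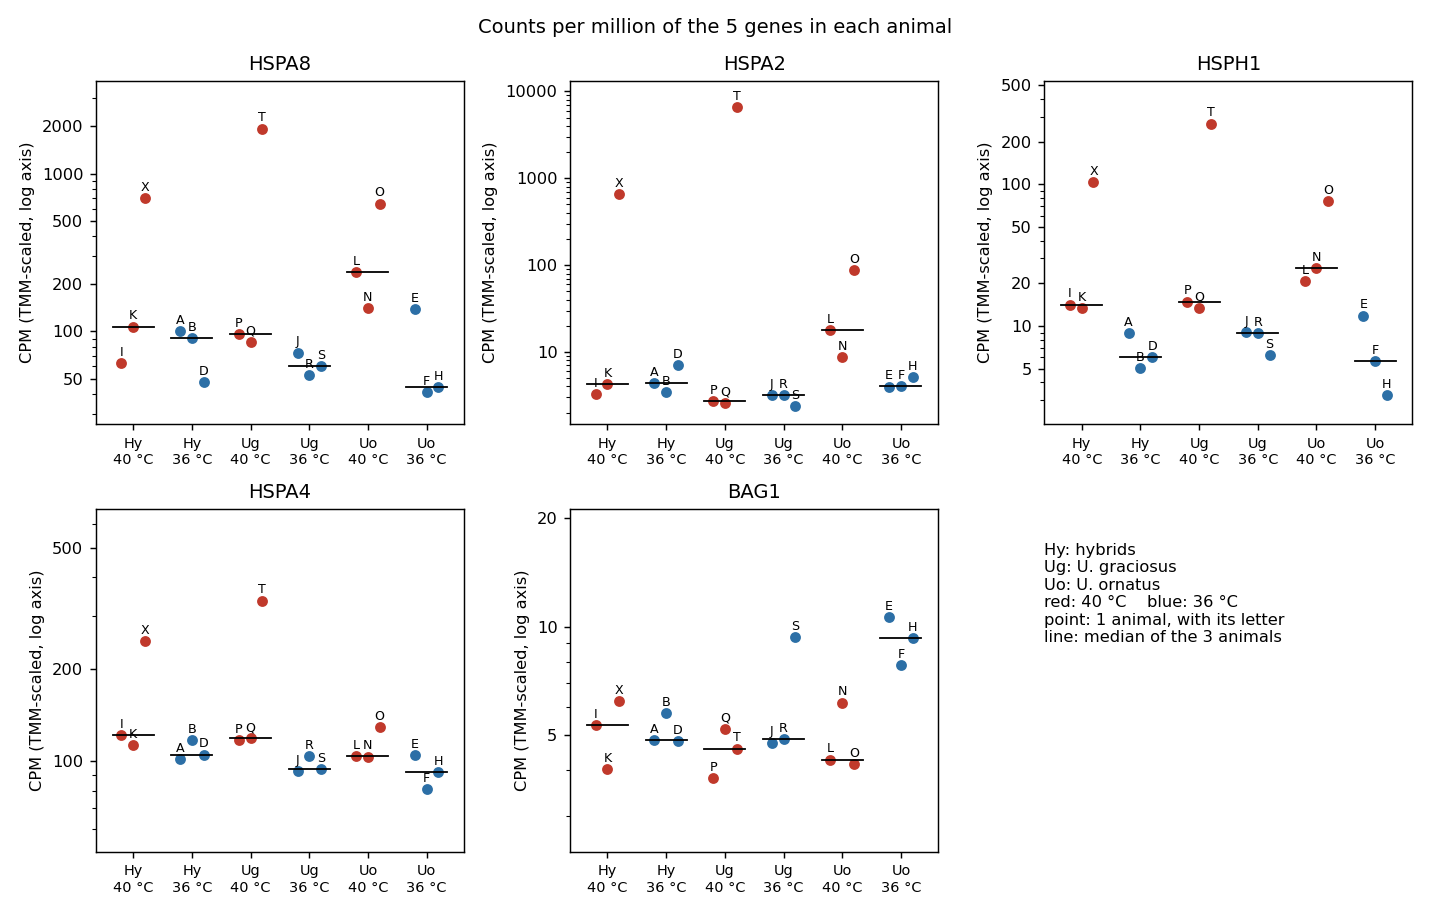
Level of each of the 5 genes in each of the 18 animals, in CPM on a log axis, by lineage and temperature, with the animal's letter at each point and a line at the median of each group of 3. X, T and O lie above the other animals of their lineage for HSPA8, HSPA2, HSPH1 and HSPA4, with T at 6599 CPM for HSPA2, and BAG1 stays between 3.81 and 10.6 CPM.

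HSPA8, the constitutive chaperone, stood at 697, 62.6 and 107 CPM in heated hybrids X, I and K, against 100.1, 90.6 and 47.6 CPM in hybrids A, B and D at 36 °C. In U. graciosus it stood at 1929.6, 95.9 and 85.7 CPM in T, P and Q at 40 °C, against 73.2, 52.6 and 60.1 CPM in J, R and S at 36 °C. In U. ornatus it stood at 646, 238 and 139.7 CPM in O, L and N at 40 °C, against 138, 41.4 and 44.2 CPM in E, F and H at 36 °C. The groups overlapped in hybrids, where I lay below A and B, and did not overlap in either parent species, although N lay barely above E. Such a gap was met by 7.25% of the genes tested in U. graciosus and by 12.1% in U. ornatus. In all, 8 of 9 heated animals lay above each 36 °C animal of their own lineage, a count that 1.32% of the genes tested reached or passed. X, T and O were left out as an alternative added after their high heat shock values were seen, and the mean heat effect of HSPA8 was then 0.66 ± 0.28 (adjusted p = 0.298 in edgeR). DESeq2 called HSPA8 with all animals (2.52, adjusted p = 0.00434), among 849 of the 15856 genes.

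HSPA2 showed the widest range of the 5 genes, from 2.37 to 6599 CPM. Among heated hybrids it stood at 657 CPM in X but at 3.26 and 4.28 CPM in I and K, against 4.39, 3.44 and 7.09 CPM in A, B and D at 36 °C. In heated U. graciosus it stood at 6599 CPM in T but at 2.70 and 2.60 CPM in P and Q, against 3.21, 3.17 and 2.37 CPM in J, R and S at 36 °C. In these lineages the level was therefore high in 1 heated animal each, while the other 4 heated animals lay inside or just below the range of their 36 °C group. In U. ornatus it stood at 87.6, 17.7 and 8.65 CPM in O, L and N at 40 °C, against 3.98, 4.05 and 5.12 CPM in E, F and H at 36 °C, without overlap. Such a gap was met by 12.1% of the genes tested in this species. With both U. graciosus and hybrids overlapping, 5 of 9 heated animals lay above each 36 °C animal of their lineage, a count that 16.4% of the genes tested reached or passed. The mean heat effect without X, T and O was 0.35 ± 0.21 (adjusted p = 0.453 in edgeR).

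The counts behind these HSPA2 levels were 98997 in T, 18799 in X and 1871 in O, against 44 to 484 in the other heated animals and 56 to 142 in the animals at 36 °C. HSPA2 took 0.572% of all counts in T, with a 95% Wilson interval of 0.569% to 0.576% that covers counting error only. The share was 0.0936% in X, and its median over the 9 animals at 36 °C was 0.00036%. T lay 2263 times above the mean of its lineage at 36 °C, X 132 times and O 19.99 times. HSP70 genes are close copies of one another, and the sources used here do not say how multiply mapped reads were counted, so reads of other HSP70 copies in the HSPA2 or HSPA8 row cannot be told apart. HSPA1A and HSPA1B, the inducible HSP70 genes of mammals, were not analysed here.

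HSPH1, the inducible exchange factor, was higher in every heated animal than in any animal at 36 °C. Among heated hybrids it stood at 104 CPM in X, 14.2 in I and 13.4 in K, against 8.98, 5.05 and 6.03 CPM in A, B and D at 36 °C. In U. graciosus it stood at 268 CPM in T, 14.9 in P and 13.5 in Q at 40 °C, against 9.01, 8.97 and 6.25 CPM in J, R and S at 36 °C. In U. ornatus it stood at 76.0 CPM in O, 20.7 in L and 25.6 in N at 40 °C, against 11.8, 5.67 and 3.26 CPM in E, F and H at 36 °C. The lowest heated animal, at 13.4 CPM, lay above the highest of the 9 animals at 36 °C, at 11.8 CPM. All 9 heated animals thus lay above every 36 °C animal of their lineage, as for 0.441% of the genes tested. In hybrids alone, 5.11% of the genes tested had 3 of 3 heated animals above. The heated animals other than X, T and O averaged 2.06 times the 36 °C mean in hybrids, 1.76 times in U. graciosus and 3.35 times in U. ornatus. With X, T and O left out, the mean heat effect was 1.20 ± 0.23 (adjusted p = 0.0529 in edgeR, with 0.344% of genes called). Over the 18 fits that left out 1 animal, HSPH1 had adjusted p from 0.0349 to 0.0931 in edgeR and values from 2.02 without T to 3.17 without E. The call was lost when A, B, D or X was left out among hybrids, J, R, S or T in U. graciosus, or E, F, H or O in U. ornatus. Calls over all genes also fell, to between 6 (without R) and 131 (without X), against 158 with all animals. DESeq2 gave fitted values for HSPH1 and HSPA2 (2.96 and 6.05) but no p, adjusted or not. In voom the adjusted p of HSPH1 was 0.0583.

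**Figure D2:**
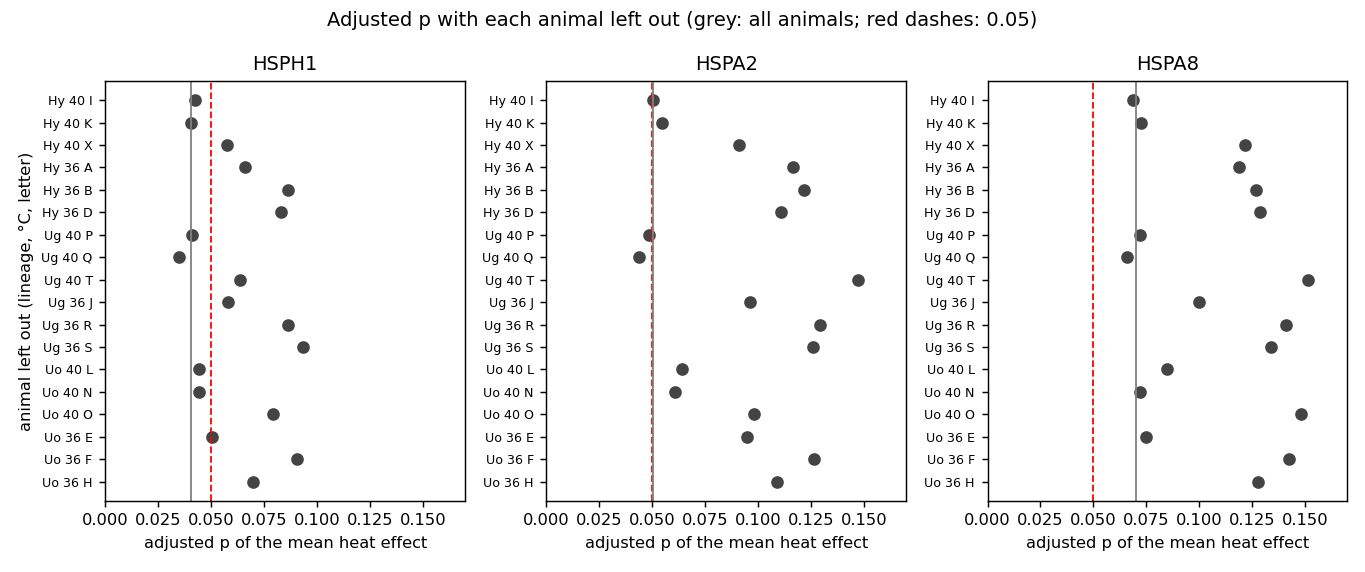
Adjusted p of the mean heat effect (edgeR) for HSPH1, HSPA2 and HSPA8 when each of the 18 animals is left out in turn; rows name the animal, the grey line is the fit with all animals and the red dashes mark 0.05. HSPH1 lies under the dashes in 6 of 18 fits, HSPA2 in 2 and HSPA8 in 0. The 18 fits called 6 to 131 genes in all, against 158 with all animals.

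HSPA4, the constitutive exchange factor of the HSP110 type, ran from 80.7 to 336 CPM over the 18 animals. It stood at 248, 122 and 113 CPM in heated hybrids X, I and K, against 101, 117 and 105 CPM in A, B and D at 36 °C. In U. graciosus it stood at 336, 117 and 119 CPM in T, P and Q at 40 °C, against 92.5, 103.6 and 94.3 CPM in J, R and S at 36 °C, without overlap. Such a gap was met by 7.25% of the genes tested in this species. In U. ornatus HSPA4 stood at 129, 103.7 and 103.4 CPM in O, L and N at 40 °C, against 105, 80.7 and 92.0 CPM in E, F and H at 36 °C, where the groups overlapped. T lay 3.47 times and X 2.30 times above the 36 °C mean of their lineage, O 1.40 times. The mean heat effect without X, T and O was 0.18 ± 0.094 (adjusted p = 0.380 in edgeR).

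BAG1 was the member whose fitted mean heat effect lay below 0. In U. ornatus it stood at 4.17, 4.29 and 6.16 CPM in O, L and N at 40 °C, against 10.6, 7.83 and 9.30 CPM in E, F and H at 36 °C. The groups did not overlap, as for 11% of the genes tested in this species in the same direction. In U. graciosus it stood at 4.60, 3.81 and 5.23 CPM in T, P and Q at 40 °C, against 4.77, 4.88 and 9.38 CPM in J, R and S at 36 °C. In hybrids it stood at 6.22, 5.35 and 4.04 CPM in X, I and K at 40 °C, against 4.86, 5.77 and 4.81 CPM in A, B and D at 36 °C. BAG1 rested on 62 to 240 counts a library. X held the highest level of the 6 hybrids and O the lowest of the 6 U. ornatus. The mean heat effect of BAG1 without X, T and O was -0.48 ± 0.19 (adjusted p = 0.261 in edgeR).

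**Figure D3:**
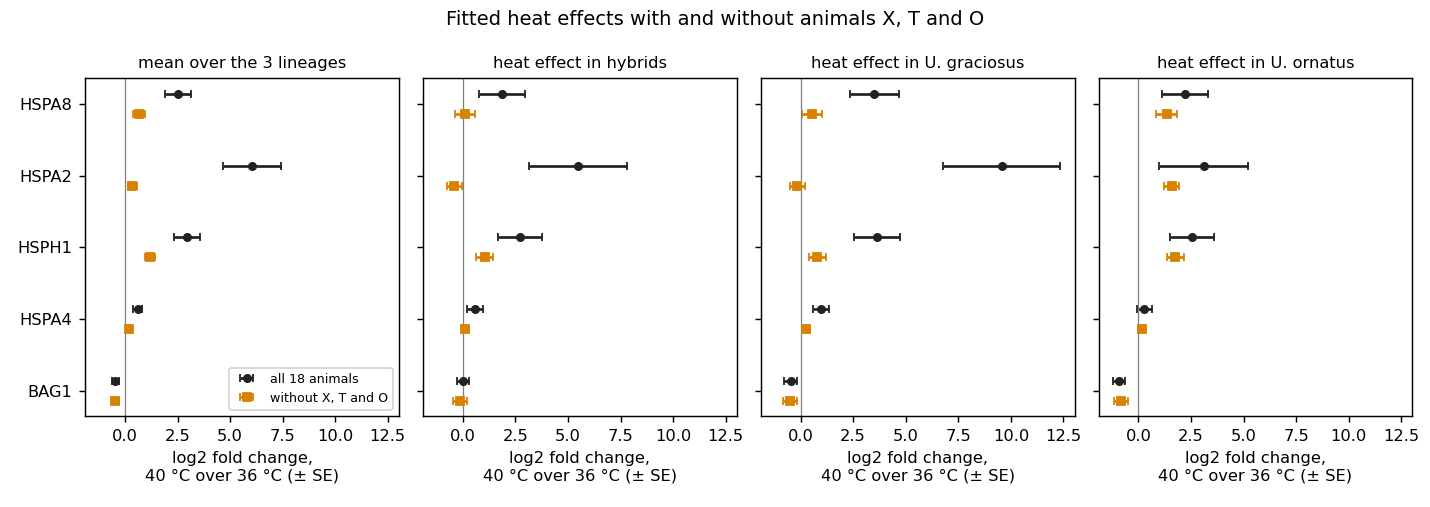
Fitted log2 fold change of 40 °C over 36 °C with its SE for the 5 genes, as the mean over lineages and in each lineage, with all 18 animals (circles) and without X, T and O (squares). The mean effect of HSPA2 is 6.05 with all animals and 0.35 without the 3, that of HSPH1 2.96 and 1.20, and that of BAG1 -0.46 and -0.48.

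Lineage by lineage, no member was called for heat in edgeR, with 0% of genes called in hybrids, 0% in U. graciosus and 0.782% in U. ornatus. At an unadjusted p under 0.05 stood 2 members in hybrids, 4 in U. graciosus and 2 in U. ornatus. So did 1239, 968 and 2652 of the 15856 genes tested. DESeq2, which gave no adjusted p for HSPA2 and HSPH1, called 0, 0 and 1 member. The last was BAG1 in U. ornatus (adjusted p = 0.0420, among 847 genes called there). In voom 0 members were called in each. Of all genes tested, DESeq2 called 55, 38 and 847 and voom 0, 1 and 262. HSPA2 had fitted values of 5.48 ± 2.34 in hybrids, 9.56 ± 2.80 in U. graciosus and 3.11 ± 2.11 in U. ornatus (adjusted p = 0.616, 0.629 and 0.478). Without X, T and O they were -0.40 ± 0.36, -0.15 ± 0.37 and 1.59 ± 0.35. Each SE rests on a spread per gene taken over all animals in the fit, not within the lineage. With only the groups compared, HSPA2 was at 5.48 ± 2.10 in hybrids, 9.56 ± 3.41 in U. graciosus and 3.11 ± 0.83 in U. ornatus. It was not called there either (adjusted p = 0.901, 0.622 and 0.197 in edgeR). HSPH1 had 2.71 ± 1.05, 3.61 ± 1.09 and 2.56 ± 1.05 in the same lineages (adjusted p = 0.580, 0.637 and 0.234), and 1.04 ± 0.41, 0.80 ± 0.41 and 1.74 ± 0.41 without X, T and O. HSPA8 had 1.86 ± 1.08, 3.51 ± 1.15 and 2.20 ± 1.09 (adjusted p = 0.698, 0.691 and 0.326), and 0.096 ± 0.49, 0.54 ± 0.49 and 1.34 ± 0.48 without them. BAG1 had 0.016 ± 0.29 in hybrids, -0.48 ± 0.30 in U. graciosus and -0.92 ± 0.30 in U. ornatus (adjusted p = 0.997, 0.884 and 0.139), and -0.13 ± 0.33, -0.49 ± 0.33 and -0.82 ± 0.33 without X, T and O. HSPA4 had 0.58 ± 0.37, 0.98 ± 0.37 and 0.28 ± 0.36 (adjusted p = 0.723, 0.731 and 0.746 in edgeR), and 0.12 ± 0.16, 0.27 ± 0.16 and 0.17 ± 0.16 without them.

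The difference of heat effects between lineages was tested directly, and no member was called in edgeR, DESeq2 or voom. DESeq2 gave no adjusted p for HSPA2 and HSPH1 and so could call neither. In edgeR the share of genes called was 0% for hybrids minus U. graciosus, 0% for hybrids minus U. ornatus and 0.00631% for U. graciosus minus U. ornatus. In the same order, DESeq2 called 3, 92 and 66 of all genes and voom 0, 1 and 4. At an unadjusted p under 0.05 in edgeR stood 0, 1 and 1 members, and 545, 1529 and 1183 of the 15856 genes tested. The members were BAG1 and HSPA2. The heat effect of BAG1 in hybrids lay 0.94 ± 0.42 above that in U. ornatus (adjusted p = 0.503). That of HSPA2 in U. graciosus lay 6.45 ± 3.01 above that in U. ornatus (adjusted p = 0.667). Without X, T and O the BAG1 difference was 0.69 ± 0.46 and the HSPA2 difference -1.74 ± 0.52, the other way. The heat contrasts of the lineages share no animals, but each difference rests on 3 animals a group.

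Between lineages, averaged over temperatures, 0 of 5 members were called in edgeR in any of the 3 comparisons, with 0 at an unadjusted p under 0.05. The share of genes called was 1.82% for hybrids against U. graciosus, 35.2% for hybrids against U. ornatus and 32.2% for U. graciosus against U. ornatus. At an unadjusted p under 0.05 stood 2522, 7157 and 6809 of the 15856 genes tested. DESeq2 called 0 members in each, again without an adjusted p for HSPA2 and HSPH1. In the same order it called 915, 6404 and 5898 of the 15856 genes. The voom fit called 1, BAG1 in hybrids against U. ornatus (-0.48, adjusted p = 0.0495), where voom called 45.1% of all genes. BAG1 in hybrids lay 0.38 below U. ornatus on the log2 scale in edgeR (-0.38 ± 0.21, adjusted p = 0.175). At 36 °C alone it averaged 5.15 ± 0.54 CPM in hybrids, 6.34 ± 2.63 CPM in U. graciosus and 9.25 ± 1.39 CPM in U. ornatus (SD, n = 3 each). The step between hybrids and U. ornatus was -0.84 ± 0.30 on the log2 scale (adjusted p = 0.0571 in edgeR). All 3 hybrids lay below all 3 U. ornatus, as for 20.4% of the genes tested, while hybrids and U. graciosus differed by less than the spread in U. graciosus. At 40 °C BAG1 averaged 5.20 ± 1.10 CPM in hybrids, 4.55 ± 0.71 CPM in U. graciosus and 4.87 ± 1.12 CPM in U. ornatus, an order whose neighbours did not differ beyond their spread.

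For the chaperones, the order of lineages at 36 °C was short. HSPA8 averaged 79.4 ± 28.0 CPM in hybrids, 62.0 ± 10.4 CPM in U. graciosus and 74.4 ± 54.9 CPM in U. ornatus. HSPH1 averaged 6.68 ± 2.04, 8.08 ± 1.58 and 6.92 ± 4.43 CPM in hybrids, U. graciosus and U. ornatus, and HSPA4 averaged 107.9 ± 8.4, 96.8 ± 5.9 and 92.5 ± 12.0 CPM. HSPA2 averaged 4.97 ± 1.89 CPM in hybrids, 2.92 ± 0.48 CPM in U. graciosus and 4.38 ± 0.64 CPM in U. ornatus. Its 3 U. graciosus values lay below all 6 others, as for 2.23% of the genes tested, while hybrids and U. ornatus overlapped. At 36 °C alone the fitted HSPA2 difference was -0.59 ± 2.01 for U. graciosus minus U. ornatus and 0.18 ± 1.99 for hybrids minus U. ornatus. Neither was called (adjusted p = 0.878 and 0.963 in edgeR), in a fit whose spread includes X, T and O. Without these animals and over both temperatures, HSPA2 was lower in U. graciosus than in U. ornatus (-1.45 ± 0.26 on the log2 scale, adjusted p = 0.00115 in edgeR) and lower in hybrids than in U. ornatus (-0.81 ± 0.26, adjusted p = 0.0228), in contrasts that then called 36.1% and 39.7% of all genes. With all animals these differences had the opposite sign, at 2.64 ± 1.47 and 1.36 ± 1.41, and neither was called (adjusted p = 0.183 and 0.479). Other than X and O, heated hybrids stood at 3.26 and 4.28 CPM and heated U. ornatus at 17.7 and 8.65 CPM. At 36 °C the hybrid mean lay above that of U. ornatus. Leaving out animals for high heat shock values narrows the spread of these genes, so the p without X, T and O are descriptive.

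The rest of the chaperone network was read from lists chosen with earlier results of these data known. Of 8 other HSP70 family genes tested, 0 were called for the mean heat effect in edgeR, with 3 at an unadjusted p under 0.05. Their median was 0.50 on the log2 scale, against 0.030 over all genes. Of all 15856 genes tested, 0.996% were called and 2837 had an unadjusted p under 0.05. HSPA4L, a close relative of HSPA4 named here after its values were seen, was at 1.66 ± 0.46 (adjusted p = 0.0963) and HYOU1, the HSP110-type factor of the endoplasmic reticulum, at 2.01 ± 0.62 (0.122). HSPA5, the HSP70 of the endoplasmic reticulum also called BiP, was at 1.499 ± 0.56 (0.184), and HSPA9, the mitochondrial HSP70, at 0.018 ± 0.19 (0.978). Without X, T and O, HSPA4L was at 0.41 ± 0.20, HYOU1 at 0.42 ± 0.42 and HSPA5 at 0.34 ± 0.45. HSPA4L stood at 531, 129 and 151 CPM in T, X and O, against 23.5 to 68.3 CPM over the 9 animals at 36 °C. HSPA5 stood at 6293, 1244 and 2650 CPM in T, X and O, and hybrid B at 36 °C held 1541 CPM, above X.

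Of 15 other exchange factors and adaptors, 0 were called, with a median of 0.15. At an unadjusted p under 0.05 stood 4 of them, and 2837 of the 15856 genes tested. STIP1, which carries clients from HSP70 to HSP90, was at 0.84 ± 0.27 (adjusted p = 0.127 in edgeR), and at 0.28 ± 0.16 without X, T and O. ST13, which slows ADP release from HSP70, was at -0.018 ± 0.15 (0.973), HSPBP1, another exchange factor, at -0.28 ± 0.17 (0.405) and STUB1, the ubiquitin ligase that marks HSP70 clients, at 0.050 ± 0.11 (0.853). BAG3, a heat-inducible relative of BAG1 in mammals, was at 0.60 ± 0.42 (0.474), and at -0.27 without T. It stood at 651 CPM in T, against 48.8 to 74.0 CPM in U. graciosus at 36 °C, while X held 80.6 CPM and O 43.8 CPM, close to the other animals.

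Among the partners, 1 of 14 HSP40 genes and 1 of 13 genes for HSP90 and its cochaperones were called, against 0.996% of all genes. Of the 3 genes listed with the heat shock factors (HSF1, HSF2 and HSBP1), 0 were called. DNAJA4, an HSP40 partner, rose by 3.73 ± 0.74 (adjusted p = 0.0339 in edgeR) and HSP90AA1, the inducible HSP90, by 2.64 ± 0.56 (0.0404). Without X, T and O, DNAJA4 was at 1.51 ± 0.27 (adjusted p = 0.0381 in edgeR) and HSP90AA1 at 1.04 ± 0.15 (0.0165). Those animals were left out for high heat shock values, which narrows the spread of these genes. The p without them are therefore descriptive. When single animals were left out, DNAJA4 was called in 7 of 18 fits (adjusted p from 0.0240 to 0.0854) and HSP90AA1 in 6 (0.0342 to 0.0918). Both calls were lost without A, B, D or X among hybrids, J, R or S in U. graciosus, or E, F, H or O in U. ornatus, and that of HSP90AA1 also without T. The 18 fits called 6 to 131 genes in all, against 158 with all animals. HSP90AA1 stood at 1694, 403 and 417 CPM in X, I and K, against 207.5 to 319 CPM in hybrids at 36 °C. In U. graciosus it stood at 10847, 589 and 570.4 CPM in T, P and Q, against 212 to 280 CPM at 36 °C, and in U. ornatus at 2467, 627 and 626 CPM in O, L and N, against 207 to 386 CPM at 36 °C. As for HSPH1, each heated animal lay above all 9 animals at 36 °C. The weaker condition, all 9 heated animals above every 36 °C animal of their lineage, was met by 0.441% of the genes tested. DNAJB1, the HSP40 that heat induces in mammals, was at 1.960 ± 0.57 (0.109), at 0.72 without T and at 0.29 ± 0.13 without X, T and O. HSF1 was at 0.090 ± 0.11 (0.720). Without X, T and O the medians were -0.15 for the other HSP70 genes and 0.034 for the exchange factors and adaptors. They were 0.084 for HSP40 and 0.13 for HSP90 and its cochaperones, against -0.021 over all genes.

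**Figure D4:**
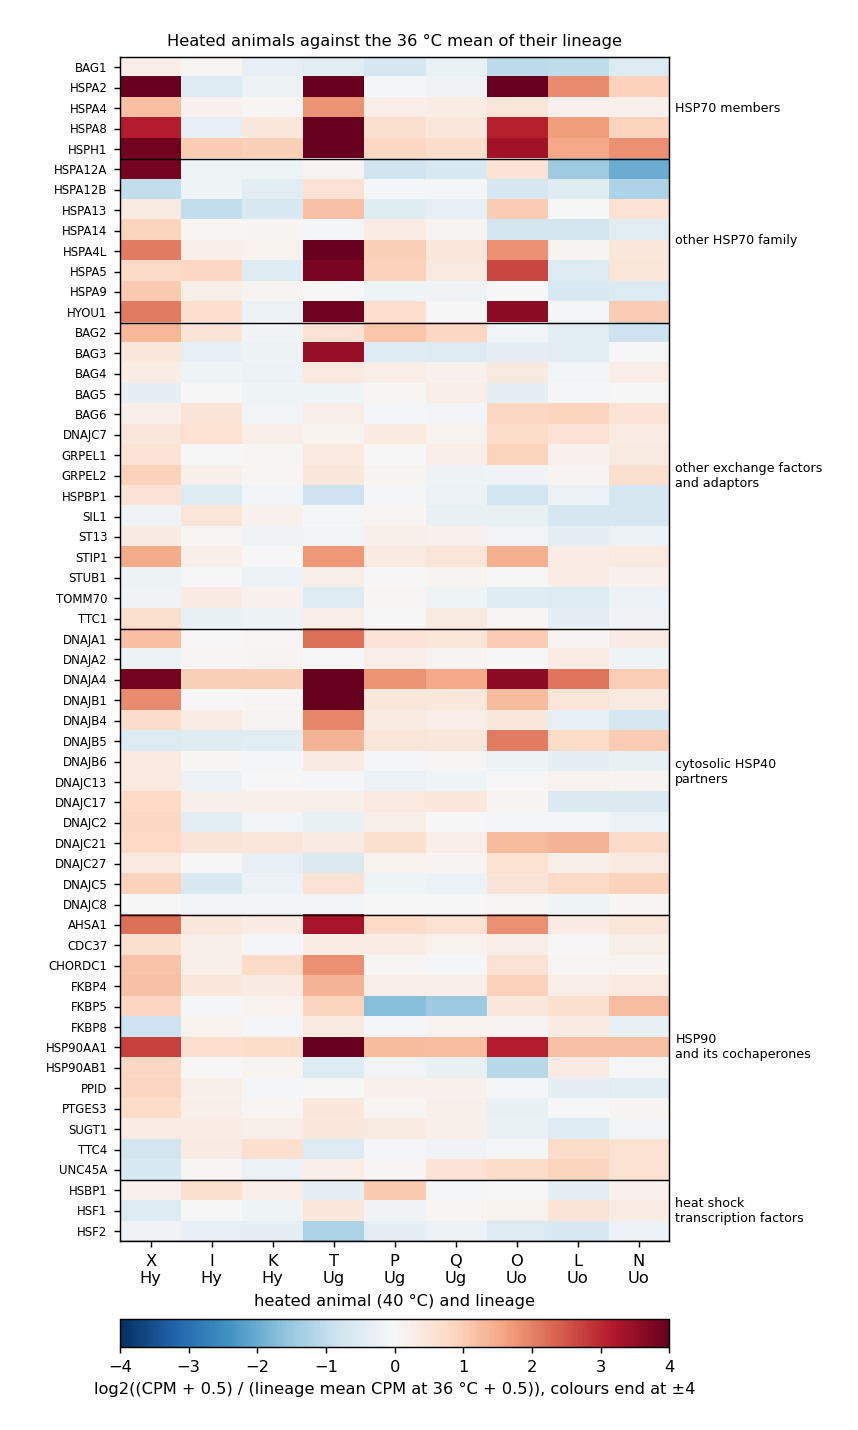
Each heated animal against the 36 °C mean of its lineage, as log2((CPM + 0.5)/(mean CPM + 0.5)), for the 58 tested chaperone genes grouped by list, with columns in the order X, I, K (hybrids), T, P, Q (U. graciosus) and O, L, N (U. ornatus). Red marks higher in the heated animal, blue lower, and colours end at 4. X, T and O are all dark red for HSPA2, HSPA8, HSPH1, DNAJA4 and HSP90AA1, while BAG3 is dark red in T and HSPA12A, a distant relative, in X.

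Cell type markers moved with the 3 high animals in different ways. The summed level of 10 stellate cell and fibroblast markers was 3238 CPM in X, 715 CPM in T and 179 CPM in O, against 128 to 385 CPM in the other heated animals and 131 to 586 CPM at 36 °C. COL3A1 and DCN led that list. The sum of 4 cholangiocyte markers (of 6 listed), led by SPP1 and SOX9, was 1202 CPM in X, 77.5 CPM in T and 440 CPM in O, against 40.0 to 80.1 CPM in the other heated animals and 43.2 to 96.7 CPM at 36 °C. The sum of 5 erythrocyte markers (of 10 listed), led by SLC4A1 and ALAS2, was 44.9 CPM in X, 158 CPM in T and 202 CPM in O, against 193 to 528 CPM in the other heated animals and 198 to 408 CPM at 36 °C. No marker with a row in the table was at 0 in all 18 libraries, and 0 markers of these lists were called for the mean heat effect in edgeR. In bulk liver, fewer cells of a type and less RNA per cell cannot be told apart, and the part of these markers in the chaperone levels was not tested.

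The other lists given here overlapped between temperatures. The sum of 8 macrophage markers, led by CTSS and MARCO, ran from 311 to 1571 CPM at 40 °C and from 348 to 1123 CPM at 36 °C. The sum of 9 endothelial markers, led by STAB1 and VWF, ran from 323 to 646 CPM at 40 °C and from 328 to 787 CPM at 36 °C. That of 6 T and NK cell markers (CD3E, IL7R) ran from 7.03 to 40.3 CPM at 40 °C and from 12.0 to 42.8 CPM at 36 °C, with X, T and O, at 7.03, 10.6 and 9.78 CPM, below all other animals. That of 11 skeletal muscle markers (RYR1, ATP2A1) ran from 6.69 to 56.8 CPM at 40 °C and from 7.37 to 164 CPM at 36 °C.

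Genes with the most similar pattern were ranked by Spearman's rho over the 18 animals, with log2 CPM centred on each lineage, among 10540 named genes of at least 1 CPM. The rank is descriptive, since the animals share the split by temperature and the high levels of X, T and O. For HSPH1 they were ZMYND19, UBE2J2, DHX30, HSP90AA1 and KLC2 (rho of 0.91 to 0.92). HSPA8 was followed by COPS7B, TENT5B, DUSP1, DHX30 and RUNDC1 (0.86 to 0.88), HSPA4 by CSE1L, B3GNT4, AHSA1, PDE6D and TTPAL (0.87 to 0.89), and HSPA2 by OTUD1, DNAJB1, CHORDC1, DIDO1 and TNS2 (0.76 to 0.82). BAG1 was followed by NAA20, SMU1, API5, PUS7 and EIF2B3 (0.83 to 0.93). None of the genes named for BAG1, and none of those named for HSPA8, belonged to the chaperone lists.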

How the data were processed

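The submitters' processing notes name Trim Galore 0.6.4, STAR, Subread and DESeq2, and the series design states alignment to the genome of another lizard genus, Sceloporus undulatus. Genome build, annotation, strandedness and the handling of multiply mapped reads: not given in the sources used here. Raw counts per gene are what the authors deposited. In each library 71.8% to 76.4% of the counts from 1 to 20 were even, so 1 count may not be 1 fragment, and intervals cover counting error only.

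Genes passing filterByExpr on the 6 groups were TMM-scaled. A quasi-likelihood fit in edgeR 4.0.16 (R 4.3.3; robust, a mean for each group) took all 18 libraries together. P-values were adjusted by Benjamini-Hochberg over all genes in a contrast and called under 0.05; the SE is the log2 fold change over the root of F. Each animal is 1 replicate. Alternatives were DESeq2 1.42.0, RLE factors, no filter, 5 CPM in 3 libraries, limma 3.58.1 voom with quality weights, the compared groups alone, 1 temperature alone and each animal left out. Leaving out X, T and O, and halving counts, were added after seeing the data. The fit was tested on simulated data in which an added change was the same in every animal that received it. Animals high across many genes, like X, T and O, were not built in, so that case was not tested. Members and gene lists were chosen with earlier results of these data known. Genes named were the 5 members, called or preset chaperone genes, the 5 genes most like each member and the 2 highest markers of each cell type list; 1 list is not reported here.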

Additional observations from a re-analysis of the deposited data

How the results depend on the processing

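The mean heat effect called 1 member, and 2 (HSPA2 and HSPH1) with RLE factors, with a filter of 5 CPM in 3 libraries or with halved counts. In that order 166 of 15856, 175 of 11445 and 168 of 14844 genes were called. HSPA2 then had adjusted p of 0.0498, 0.0469 and 0.0495 in edgeR, against 0.0504 in the main fit. In voom HSPA2 was at 0.94 ± 0.90 (adjusted p = 0.607). The mean heat effect called 0 members with no low-count filter, with voom or without X, T and O. It called 0 to 2 members when 1 animal was left out, in fits that called 6 to 131 of all genes. In DESeq2 the 1 member called was HSPA8 and not HSPH1, for which DESeq2 gave no p. Heat in U. ornatus called 1 member in DESeq2 (BAG1) instead of 0. With no low-count filter DNAJA4 and HSP90AA1 had adjusted p of 0.0561 and 0.0524 (edgeR), and DNAJA4 had 0.0945 in voom. Hybrids against U. ornatus called 1 in voom (BAG1, among 45.1% of all genes) and 1 without X, T and O (HSPA2, among 39.7%), and U. graciosus against U. ornatus called 1 without them (HSPA2, among 36.1%). All genes called for the mean heat effect numbered 158 in edgeR, 849 in DESeq2, 534 in voom, 73 with no filter and 55 without X, T and O. In U. ornatus they numbered 124, 847, 262, 60 and 87 under the same settings, and 0 when only the groups compared were fitted. No paired analysis was possible because each letter names a single animal, held at a single temperature.

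Values that changed sign were uncalled in the edgeR fit with all animals. In voom, BAG1 heat in hybrids was -0.088 and the HSPA2 difference of heat effects was -1.85 for hybrids minus U. ornatus and -0.96 for U. graciosus minus U. ornatus. There HSPA2 was at 0.21 for hybrids minus U. graciosus, -0.82 for hybrids minus U. ornatus and -1.04 for U. graciosus minus U. ornatus, HSPH1 at -0.26 and -0.00089 for the last pair of comparisons, and HSPA8 at -0.38 for the last. At 36 °C alone, hybrids minus U. graciosus gave 0.36 for HSPA8, 0.76 for HSPA2 and 0.16 for HSPA4, hybrids minus U. ornatus 0.094 for HSPA8 and -0.044 for HSPH1, and U. graciosus minus U. ornatus -0.26 for HSPA8 and -0.59 for HSPA2. At 40 °C alone, BAG1 was at 0.19 for hybrids minus U. graciosus and 0.094 for hybrids minus U. ornatus. Without X, T and O, heat in hybrids was -0.40 for HSPA2 and -0.13 for BAG1, heat in U. graciosus -0.15 for HSPA2, and the HSPA2 difference of heat effects -1.99 for hybrids minus U. ornatus and -1.74 for U. graciosus minus U. ornatus. Also without them, hybrids minus U. graciosus gave 0.13 for HSPA8, 0.64 for HSPA2 and 0.074 for HSPA4, hybrids minus U. ornatus -0.81 for HSPA2 and -0.39 for HSPH1, and U. graciosus minus U. ornatus -0.66 for HSPA8, -1.45 for HSPA2 and -0.24 for HSPH1. Of the partner genes, HSPA9 was at -0.039 in voom and -0.20 without X, T and O, BAG3 at -0.15 and -0.34, and ST13 at 0.014 in voom. The cause was not tested.

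When 1 animal was left out, the mean heat effect ran from -0.11 to 0.13 for HSPA9, -0.27 to 0.77 for BAG3 and -0.074 to 0.077 for ST13. Heat in hybrids ran from -0.39 (without X) to 6.05 for HSPA2 and from -0.13 to 0.17 for BAG1, and heat in U. graciosus from -0.14 (without T) to 10.1 for HSPA2. Hybrids minus U. graciosus ran from -1.32 to 1.01 for HSPA8, -4.19 to 3.57 for HSPA2, -0.26 to 0.30 for HSPA4, -1.53 to 0.68 for HSPH1 and -0.14 to 0.14 for BAG1. Hybrids minus U. ornatus ran from -0.95 to 0.36 for HSPA8, -1.57 to 2.13 for HSPA2 and -0.79 to 0.44 for HSPH1. U. graciosus minus U. ornatus ran from -1.09 to 0.81 for HSPA8, -2.21 to 3.39 for HSPA2 and -0.65 to 1.15 for HSPH1. The HSPA2 difference of heat effects ran from -9.92 to 5.62 for hybrids minus U. graciosus, -3.50 to 3.89 for hybrids minus U. ornatus and -3.25 to 7.95 for U. graciosus minus U. ornatus.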

Other observations

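The ratio of HSPA2 to HSPA8 counts, which is not corrected for gene length, was 3.42 in T, 0.943 in X and 0.136 in O, against 0.0282 to 0.0744 in the other 6 heated animals and 0.0289 to 0.149 in the 9 animals at 36 °C. The ratio in O lay above those of U. ornatus at 36 °C, which were 0.0289 in E, 0.0980 in F and 0.116 in H, and the highest at 36 °C was that of hybrid D.

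Animals at 36 °C also differed among themselves. U. ornatus E held the highest level of the 9 animals at 36 °C for 13 of the 58 chaperone genes tested (22.4%, against 16.6% of all genes tested), and hybrid B for 14 (24.1%, against 13.1%). The genes named here for E were chosen after their values were seen. HSPA8 stood at 138 CPM in E, against 100.1 CPM in the next animal, HSPA4L at 68.3 against 35.1 CPM, HSPH1 at 11.8 against 9.01 CPM, DNAJA1 at 119 against 86.3 CPM and HSP90AA1 at 386 against 319 CPM. E was also highest for BAG1 (10.6 against 9.38 CPM), whose fitted mean heat effect lay below 0. The rest were BAG5, TTC1, DNAJC2, DNAJC5, DNAJC27, AHSA1 and FKBP5.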
